A study of Rattus norvegicus with 12 samples.

Results

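The 4 genes described here encode core components of angiotensin and endothelin signalling and were chosen by their Ensembl rat gene identifiers: Agt (ENSRNOG00000018445), Ace (ENSRNOG00000062101), Agtr1a (ENSRNOG00000018346) and Edn1 (ENSRNOG00000014361). They are 4 of the 19955 genes in the deposited table, and all 4 were among the 17091 genes that were tested, whose signal averaged 1 or more over the libraries. The pairing of identifier and symbol comes from the rule that chose the genes, since the table lists identifiers alone. RNA was measured by sequencing of polyadenylated RNA from hearts of wild-type Sprague Dawley rats. The groups were a sham operation, which is surgery without an infarct (2 libraries), an operation that causes myocardial infarction (MI, 4 libraries), and an infarct over which a cardiac patch was then sutured at its border (Patch, 4 libraries). No age, time after surgery, infarct size or sampled region was given in the labels. They number the samples but do not say that each came from its own animal, so the p-values measure the spread between these libraries, which may in part be technical.

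Angiotensinogen, the product of Agt, is a secreted protein made mainly by the liver and at lower levels by other tissues, including heart. Renin releases angiotensin I from it, and angiotensin-converting enzyme, the product of Ace and a peptidase of the endothelial surface, turns that peptide into angiotensin II. Angiotensin II acts through the type 1 receptor, a Gq-coupled receptor of vascular smooth muscle, cardiac fibroblasts and other cells, which Agtr1a encodes in rodents together with a closely related second gene. Edn1 encodes the precursor of endothelin-1, a vasoconstrictor peptide released mostly by endothelial cells that signals through its own Gq-coupled receptors. Both pathways are known for effects on vessel tone, cardiomyocyte growth and fibrosis, and inhibitors of the angiotensin branch are given after infarction.

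Since the results turn on Edn1, Agtr1a and Ace, the sequence before their RefSeq start is shown for each, read 5′ to 3′ on the gene's strand. The sequences are those of RefSeq on the build GRCr8, which is not the build of the deposited data, and no coordinate was converted. Capitals mark matches, on either strand, to 5 short motifs searched in the 250 bases before the start. They were TATAAA for the TATA box, AGATAA for GATA factors, TGACTNA for AP-1, ACGTG for the core of a hypoxia response element and GGGCGG for the GC box. Of the 4 genes, 3 were found in the promoter table by symbol; Agt was not.
Edn1: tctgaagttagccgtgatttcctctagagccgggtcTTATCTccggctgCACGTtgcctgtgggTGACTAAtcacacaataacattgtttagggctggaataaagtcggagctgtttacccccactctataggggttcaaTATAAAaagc
Agtr1a: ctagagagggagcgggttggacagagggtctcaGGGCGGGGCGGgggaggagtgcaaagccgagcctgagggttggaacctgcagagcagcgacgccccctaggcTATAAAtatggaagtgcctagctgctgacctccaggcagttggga
Ace: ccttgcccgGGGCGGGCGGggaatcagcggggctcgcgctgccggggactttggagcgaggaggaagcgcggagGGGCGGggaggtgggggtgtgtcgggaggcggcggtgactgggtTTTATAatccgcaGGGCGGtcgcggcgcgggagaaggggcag
The Edn1 stretch lies at chr17:22666788-22666937 on the minus strand, 250 to 101 bases before the start. The Agtr1a stretch lies at chr17:34435433-34435582 on the minus strand, and the Ace stretch at chr10:91409969-91410128 on the plus strand, each ending at the base before the start. Edn1 held a GATA match 214 to 209 bases before the start, a hypoxia response core at 201 to 197 and an AP-1 match at 186 to 180, all within one short stretch, and a TATA box at 110 to 105. Agtr1a held a TATA box at 45 to 40 and 2 overlapping GC boxes, at 117 to 112 and at 112 to 107. Ace held 4 GC boxes, of which 2 overlap, and a TATA box read on the opposite strand at 42 to 37. Among 27457 promoters of this length, 13.1% held the TATA box, 11.3% the AP-1 motif, 16.9% the hypoxia response core and 32.4% the GC box, and 2759 promoters held the GATA motif. No motif other than the TATA box was held by all 3, and the Edn1 window had no GC box. A match describes letters in these windows and shows no binding.

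Library sizes were 11420710 to 14110864 reads and followed the groups: each MI library, at 12932419 or more, was larger than each sham and Patch library, at 12565137 or less. The part of depth in the results was not tested. One library, MI2, stood apart from the others: 5474 genes were at 0 in it, against 2400 to 3335 in the other 9 libraries. Differences that use MI are therefore given with and without it. The part of this difference in the results below was not tested. Values are the deposited normalized signal, a gene's reads divided by one factor per library, so that 1 read was worth 0.790 to 0.929 units in MI and 0.996 to 1.12 in sham and Patch. Signals of different genes are not compared with each other as levels, since they are not scaled to transcript length. In RNA from bulk tissue, fewer cells of a type and less RNA per cell cannot be told apart, and no list of cell type markers was analysed here.

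Agt, the precursor of the angiotensin peptides, showed no detectable difference after infarction. Its signal was 35.5 and 34.2 in the sham libraries, 32 and 31 reads. In the MI libraries it was 47.4 in MI1, 34.4 in MI2, 13.3 in MI162 and 39.1 in MI165. MI thus lay on both sides of sham, and MI162 was the lowest of the 10 libraries. In Patch it was 25.8 in P695, 29.0 in P697, 22.9 in P699 and 26.6 in P985, a narrow range that lay below both sham libraries.

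The value of Agt in MI162 rested on 16 reads. Its 95% Poisson interval, which covers counting error only, was 7.59 to 21.6 in signal and did not reach the intervals of the other 3 MI libraries, the lowest of which began at 24.2. MI averaged 33.5 ± 14.5 (SD, n = 4), sham 34.9 ± 0.953 (SD, n = 2) and Patch 26.1 ± 2.52 (SD, n = 4). The spread of Agt on the log2(signal + 1) scale was 0.78 (SD) over the MI libraries and 0.14 over the Patch libraries. The difference between MI and sham was −0.19 (SE 0.49, limma adjusted p 0.830), with a 95% interval of −1.28 to 0.90. Without MI2 it was −0.24 (SE 0.50, limma adjusted p 0.747). It changed sign, to 0.19, without MI162. When libraries were scaled to total reads it was 0.047, but −0.20 relative to the median of all genes, which was then 0.24.

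Patch libraries had less Agt than sham in each of the 4, with a ratio of means of 0.749. This difference did not pass the test, at −0.41 in log2 units (SE 0.49, limma adjusted p 1, interval −1.50 to 0.68). The groups did not overlap, and 9.37% of all genes tested were likewise lower in Patch without overlap, so the separation is not called particular to Agt. Each Patch value rested on 23 to 26 reads, and all 4 Poisson intervals overlapped those of both sham libraries. Between Patch and MI the difference was −0.22 (SE 0.40, limma adjusted p 0.753), and the groups overlapped. Without MI2 it was −0.16 (SE 0.42, limma adjusted p 0.798), and leaving out single libraries moved it from −0.60 (without MI162) to −0.013 (without MI1).

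Ace, the enzyme that makes angiotensin II, had the most reads of the 4 genes, 369 to 1464 per library. The sham libraries gave 548.5 and 550.2, closer than their Poisson intervals of 501.2 to 599.1 and 503.0 to 600.7. The MI libraries gave 800.7 in MI1, 627.3 in MI2, 1054 in MI162 and 1192 in MI165, each above both sham libraries. The Patch libraries gave 414.4 in P695, 648.6 in P697, 489.2 in P699 and 466.6 in P985. P697 alone of these lay above sham, and also above MI2.

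Ace averaged 918.5 ± 253 in MI (SD, n = 4), 1.67-fold the sham mean of 549.3 ± 1.22 (SD, n = 2). The difference did not pass the test when all libraries were used: 0.70 in log2 units (SE 0.25, limma adjusted p 0.0826). Without MI2 it did, at 0.87 (SE 0.21, limma adjusted p 0.0125), with a ratio of means of 1.85. It passed as well with scaling to total reads (0.94, limma adjusted p 0.0365), a scaling that moved the median of all genes to 0.24. Relative to that median Ace differed by 0.70, against 0.69 in the main fit. Over the alternatives that kept both sham libraries, the adjusted p ran from 0.00708 to 0.167. MI and sham values did not overlap, with MI higher, as in 17.1% of all genes tested. The Poisson interval of MI2, 580.9 to 676.5, overlapped those of both sham libraries, which ended at 599.1 and 600.7.

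Ace was lower in Patch than in MI. The Patch mean was 504.7 ± 101 (SD, n = 4), 0.549 of the MI mean. On the log2 scale the difference was −0.84 (SE 0.20, limma adjusted p 0.0266), and without MI2 it was −1.01 (SE 0.18, limma adjusted p 0.00284). With all libraries the groups overlapped through P697 and MI2. Without MI2 they did not, and 16.9% of all genes tested were then lower in Patch without overlap. The call was lost without MI162 (adjusted p 0.0783), MI165 (0.0550), P695 (0.0918) or P985 (0.0798), with differences of −0.70 to −0.81 in those 4 fits. Against sham, Patch differed by −0.14 (SE 0.25, limma adjusted p 1), with an interval of −0.69 to 0.41.

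Agtr1a, which encodes the receptor for angiotensin II, was higher after infarction and was the only one of the 4 genes that passed the test between MI and sham with all libraries. The sham libraries were nearly equal, at 96.6 and 98.1, closer than their Poisson intervals of 77.4 to 119 and 78.8 to 121. The MI libraries were at 308.0 in MI1, 265.8 in MI2, 475.7 in MI162 and 175.8 in MI165, so that even the lowest was 1.79 times the higher sham value. MI2 lay inside the range of the other MI libraries for this gene. In Patch the signal was 56.2 in P695, 77.0 in P697, 165.4 in P699 and 101.3 in P985: the first 2 lay below sham, P985 just above it, and P699 just under MI165.

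The MI mean of Agtr1a, 306.3 ± 126 (SD, n = 4), was 3.15-fold the sham mean of 97.4 ± 1.09 (SD, n = 2). On the log2 scale the difference was 1.55 (SE 0.43, limma adjusted p 0.0350), and without MI2 it was 1.59 (SE 0.47, limma adjusted p 0.0276). Of the 4 genes, 1 was thus called higher, where 7.3% of all genes tested were called higher and 15.4% were called in either direction. The size was steadier than the call: over all 21 alternatives the difference was 1.31 to 1.80, and 12 of them kept it past the threshold. It fell short without sham1 (adjusted p 0.182), sham2 (0.180), MI1 (0.0612), MI162 (0.0766), P697 (0.0513) or P985 (0.0541), with no filter on low values (0.0555), with quantile scaling (0.0507) and when the third group was left out of the fit (0.0606). A fit with a lone sham library assumes that it varies like the other groups.

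Agtr1a was lower in Patch than in MI, with a Patch mean of 99.97 ± 47.4 (SD, n = 4), 0.326 of the MI mean. The difference was −1.63 in log2 units (SE 0.35, limma adjusted p 0.0190), and −1.67 (SE 0.39, limma adjusted p 0.0109) without MI2. The groups did not overlap, though by a small margin, with 165.4 in P699 against 175.8 in MI165, whose Poisson intervals of 141.2 to 192.6 and 153.2 to 200.9 overlapped. Of all genes tested, 7.79% were lower in Patch without overlap. Agtr1a and Ace were the 2 of 4 genes called lower in Patch, where 5.45% of all genes tested were called lower and 13.2% in either direction. The Agtr1a call was lost without MI162 (adjusted p 0.0546), P695 (0.0662), P697 (0.0568) or P985 (0.0563), with differences of −1.39 to −1.67.

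Against sham, the Patch libraries of Agtr1a had a ratio of means of 1.03, while the mean log2 difference was −0.08 (SE 0.43, limma adjusted p 1, interval −1.03 to 0.88). The signs differ because P699 raises the mean of the signals more than that of the logarithms, and without P699 the log2 difference was −0.35. Patch libraries were as uneven in Agtr1a as MI libraries, with an SD (log2) of 0.65 against 0.59. In Patch, 79.3% of all genes tested had a smaller SD, and in MI 58.7% did. Without MI2 the SD in MI was 0.72, and 77.4% of genes had a smaller one. How the counting divided reads between Agtr1a and its near-identical paralog is not given in the sources used here, so the values may hold reads of both.

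Edn1, the endothelin-1 precursor, had the largest ratio of highest to lowest signal of the 4 genes among the MI libraries, 10.6, and its result depended on which MI libraries entered the fit. The sham libraries were at 37.7 and 50.7. In the MI libraries the signal was 146.1 in MI1, 19.5 in MI2, 205.9 in MI162 and 81.4 in MI165, so that 3 lay above both sham libraries and MI2 was the lowest of all 10. The Patch libraries were at 55.0 in P695, 36.8 in P697, 44.8 in P699 and 34.8 in P985, around the sham values and below the 3 higher MI libraries.

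The MI mean of Edn1 was 113.2 ± 80.5 (SD, n = 4), that of sham 44.2 ± 9.17 (SD, n = 2) and that of Patch 42.9 ± 9.19 (SD, n = 4). MI2 held 21 Edn1 reads, with a Poisson interval of 12.1 to 29.8 in signal, where the mean of the other MI libraries would correspond to 155.5 reads at the depth of MI2. The same library held 286 Agtr1a reads against 344.2 reckoned this way, 675 Ace reads against 1093, and 37 Agt reads against 35.8. Edn1 had an SD of 1.47 (log2) over the 4 MI libraries, larger than that of 88.3% of all genes tested. Without MI2 the SD was 0.67, larger than that of 75.0% of genes.

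With all libraries, Edn1 did not pass between MI and sham, at 0.92 in log2 units (SE 0.73, limma adjusted p 0.431, interval −0.69 to 2.52). The ratio of means was then 2.56. On the same libraries edgeR gave 1.37 and DESeq2 1.35, and between Patch and MI both gave −1.40, none of them called. Without MI2 the limma difference was 1.60 (SE 0.40, limma adjusted p 0.0133), a ratio of means of 3.27, and the groups did not overlap. Of all genes tested without MI2, 27.2% were likewise higher in MI without overlap, and 14.6% were called higher. Between Patch and MI the Edn1 difference was −0.97 (SE 0.60, limma adjusted p 0.297) with all libraries and −1.65 (SE 0.33, limma adjusted p 0.00548) without MI2, where 13.7% of genes were called lower in Patch. Leaving out MI162, the highest library, moved the differences the other way, to 0.49 (limma adjusted p 0.701) between MI and sham and −0.54 (limma adjusted p 0.608) between Patch and MI. Weighting the libraries by their scatter, with MI2 kept in the fit at a weight of 0.193, also put both past the threshold, with adjusted p of 0.0427 and 0.0204. Between Patch and sham the difference was −0.05 (SE 0.73, limma adjusted p 1), with an interval of −1.66 to 1.55. Without MI2, which enters this comparison through the shared spread, the SE was 0.38 and the interval −0.89 to 0.78.

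**Figure D1:**
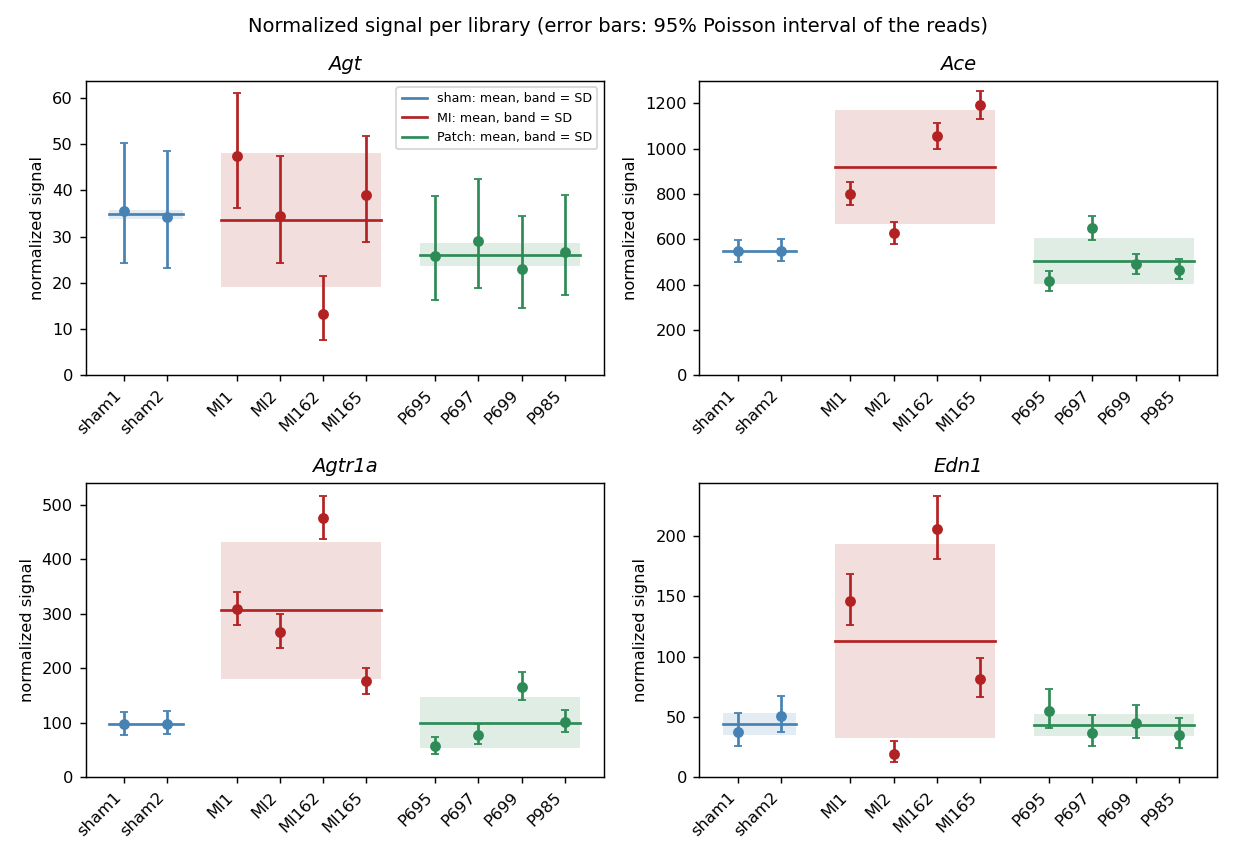
Normalized signal (vertical axis, starting at 0) of each gene in each of the 10 libraries. Points are libraries with the 95% Poisson interval of their reads, lines are group means and bands 1 SD. Agtr1a is higher in each MI library than in any sham or Patch library, Ace is higher in each MI library than in sham, Edn1 is high in 3 MI libraries and lowest in MI2, and Agt is lowest in MI162.

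Across the 4 genes, the median difference between MI and sham was 0.81 on the log2 scale, against 0.012 over all genes tested, and between Patch and MI it was −0.91 against 0.0023. Without MI2 these medians were 1.23 against 0.069 and −1.33 against −0.045. Both comparisons use the same MI libraries, so opposite signs in them are not separate pieces of evidence. Without MI2, 3 of the 4 genes were called higher in MI than in sham, where 14.6% of 17109 genes tested were, and the same 3, Ace, Agtr1a and Edn1, were called lower in Patch than in MI, where 13.7% were. Agt was called in neither. Without MI2 the groups did not overlap for these 3 genes in both comparisons, as was also the case in 27.2% of genes for higher values in MI than sham and in 16.9% for lower values in Patch than MI.

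**Figure D2:**
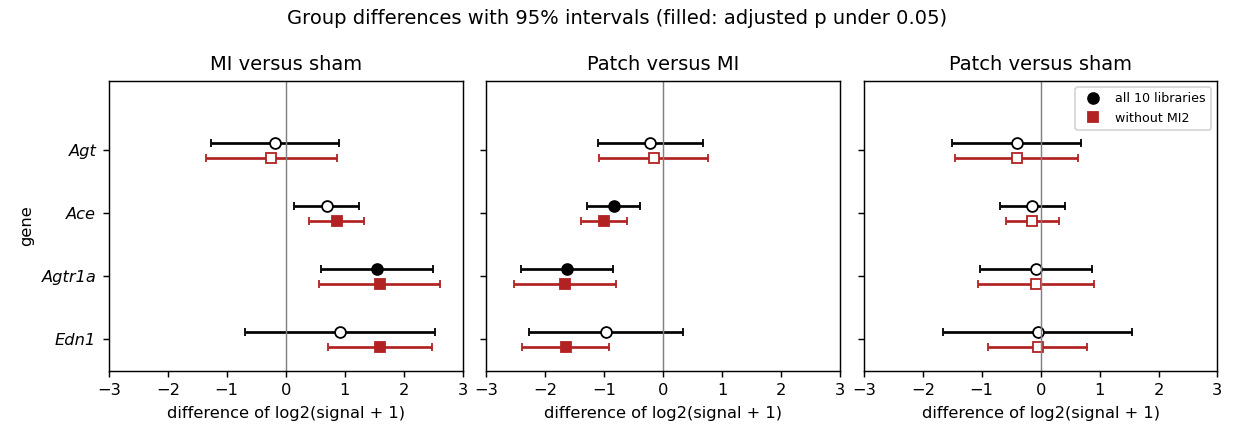
Differences of log2(signal + 1) between groups (horizontal axis) for each gene, with 95% intervals from limma, for all 10 libraries (circles) and without MI2 (squares). Filled symbols have an adjusted p under 0.05: with all libraries Agtr1a in MI versus sham and Agtr1a and Ace in Patch versus MI, and without MI2 also Edn1 in both and Ace in MI versus sham.

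None of the 4 genes passed between Patch and sham in limma, in which 0 of 17091 genes were called (0.0%) and 524 genes (3.07%) had an unadjusted p under 0.05. The smallest unadjusted p among the 4 was that of Agt, 0.426 in limma. In edgeR and DESeq2, too, none of the 4 was called; over all genes edgeR called 0 and DESeq2 15. The intervals given above are wide, and with 2 sham libraries the comparison does not show that Patch and sham were alike.

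The place of each gene among all genes tested is a description of these libraries. Counted from the highest difference among 17091 genes in MI versus sham, Agtr1a ranked 1272, Edn1 2756, Ace 3612 and Agt 10406. Counted from the lowest difference in Patch versus MI, Agtr1a ranked 614, Edn1 1711, Ace 2138 and Agt 6043. With all libraries Agtr1a was thus nearest of the 4 to the end of the distribution both times. Without MI2, Edn1 and Agtr1a lay close to each other among 17109 genes. In MI versus sham Edn1 ranked 1685 and Agtr1a 1698, with Ace at 3613 and Agt at 11080. In Patch versus MI Agtr1a ranked 912 and Edn1 932, with Ace at 2344 and Agt at 7425.

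**Figure D3:**
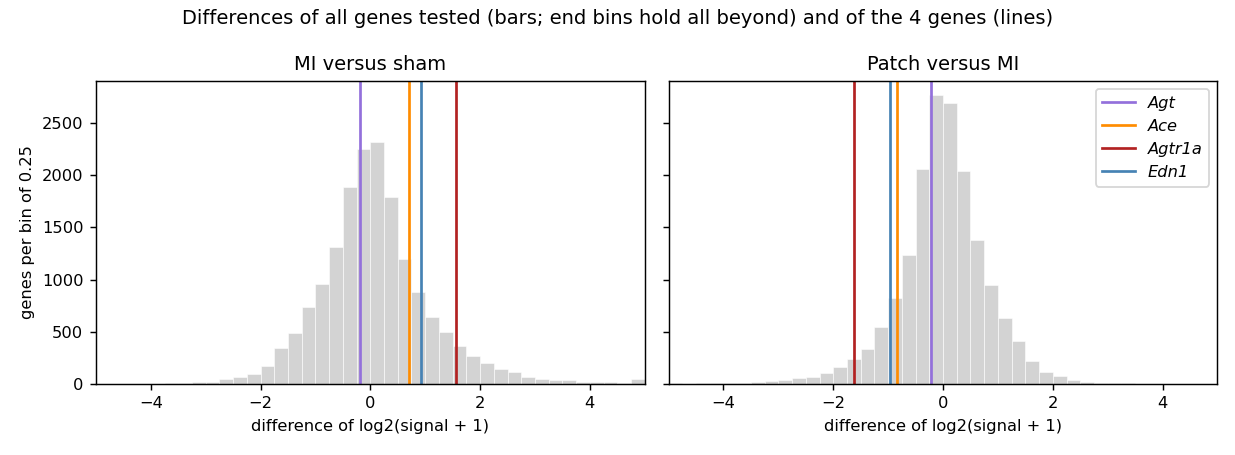
Number of genes (vertical axis) by difference of log2(signal + 1) (horizontal axis, bins of 0.25) for the 17091 genes tested, with the 4 genes as coloured lines. Agtr1a, at 1.55 and −1.63, lies farthest from the centre of the 4 with all libraries (without MI2, Edn1 was at 1.60 and Agtr1a at 1.59 in MI versus sham), and Agt, at −0.19 and −0.22, lies near it.

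The ratio of 2 genes' reads within a library does not depend on how libraries are scaled. Reads of the receptor gene Agtr1a per read of Agt numbered 2.72 and 2.87 in the sham libraries. In MI the ratio was 6.50 in MI1, 7.73 in MI2, 35.8 in MI162 and 4.50 in MI165, each above sham. In Patch it was 2.17 in P695, 2.65 in P697, 7.22 in P699 and 3.81 in P985, so that P699 lay inside the MI range and the others below it. MI162 was far above the rest because it had both the most Agtr1a reads, 573, and the fewest Agt reads, 16.

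The MI libraries did not share one pattern across the genes. The ratio of Agtr1a to Ace reads was 0.176 and 0.178 in sham. It was 0.385 in MI1, 0.424 in MI2 and 0.451 in MI162 but 0.148 in MI165, which had the highest Ace and the lowest Agtr1a signal of the group. In Patch this ratio was 0.136, 0.119, 0.338 and 0.217 in P695, P697, P699 and P985. P699 was again nearest to the 3 higher MI libraries.

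The ratio of Edn1 to Agtr1a reads was 0.474 in MI1, 0.433 in MI162 and 0.463 in MI165, inside the range of the sham libraries, 0.391 and 0.517, although both genes were higher in these MI libraries. MI2 was the exception at 0.0734. In Patch the ratio ran from 0.271 in P699 to 0.980 in P695.

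**Figure D4:**
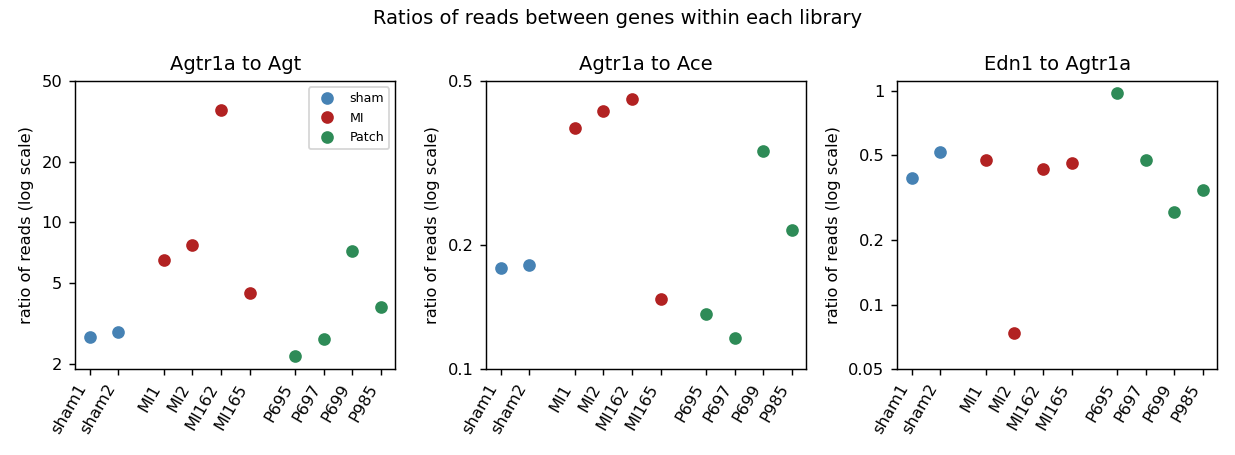
Ratios of reads between genes within each library (vertical axes, log scale), coloured by group. Agtr1a to Agt is above sham in each MI library and highest in MI162 at 35.8, Agtr1a to Ace is low in MI165 at 0.148, and Edn1 to Agtr1a is low in MI2 at 0.0734.

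Likeness of profiles was measured as the root mean square gap, over the 10 libraries, between log2(signal + 1) values centred on each gene's mean; small gaps mean that genes went up and down together and by like amounts. Among the 17090 other genes tested, Ace ranked 1396 in nearness to Agtr1a, with a gap of 0.69, which is larger than the root mean square size of the centred Ace profile itself, 0.48. Seen from Ace, Agtr1a ranked only 8183. In nearness to Agtr1a, Edn1 ranked 4904, with a gap of 0.89. Without MI2, Edn1 moved to rank 300, with a gap of 0.47. The gene nearest to Agtr1a was ENSRNOG00000004854 (gap 0.27), at 51.4 ± 13.0 in sham (SD, n = 2), with 138.9 ± 44.8 for MI (SD, n = 4) and 46.3 ± 19.0 for Patch (SD, n = 4). Nearest to Ace was ENSRNOG00000001645 (gap 0.15), at 859.2 ± 14.4, 1790 ± 569 and 930.8 ± 142 in the same groups. ENSRNOG00000009620 was nearest to Edn1 (gap 0.29) and ENSRNOG00000014205 to Agt (gap 0.27). Each of the 4 nearest genes was another one when MI2 was left out, and none of them has a symbol in the sources used here.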

How the data were processed

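Per the labels' protocols, polyadenylated RNA was selected, fragmented and copied from random hexamers, with no molecular identifiers named, so that intervals from reads cover counting error only. The submitters' processing notes name HISAT2, SAMtools, featureCounts, DESeq2 and the build rn6, without roles or versions. The authors deposited a normalized signal per gene and library. Each value was a whole multiple, within 0.1 read, of one step per library (100% of values), which gave back whole reads. Labels list 12 samples, 4 per group. A column's name gave its group; 2 columns, named ctrl1 and ctrl2, match no label and were not used. Whether they hold the other sham samples is not given in the sources used here. This left 10 libraries, 2 of them sham, so each sham mean and SD rests on n = 2.

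The test was limma (3.58.1, under R 4.3.3). It ran on log2(signal + 1) of genes whose mean signal reached 1, all 3 groups in one fit with a mean-variance trend, two-sided, with Benjamini-Hochberg adjustment over all genes and calls at an adjusted p under 0.05. Log2 differences understate changes of low genes. Alternatives were pseudocounts, filters, scalings, sample weights, edgeR 4.0.16 (quasi-likelihood), DESeq2 1.42.0, fits with 2 groups and leaving out each library. The fits of limma and edgeR were tested on simulated data in which every group had the same spread. The other alternatives were not. Python 3.11.15 was used for single-library values, motif searches and figures.

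The genes and lists were chosen with earlier results of these data known, and the motifs and printed stretches after the values had been seen. Named genes are the 4 genes and the nearest profile to each. None of the table's identifiers matched the RefSeq gene table (0 matches), so a pathway list and cell type marker lists were not analysed here.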

Additional observations from a re-analysis of the deposited data

Results flagged for a closer look

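Within groups of 4 libraries, 24 sets of values were checked for a library far from the others: the 4 genes on the log2(signal + 1) scale, 6 ratios of reads between them on the log2 scale, total reads and genes at 0, each in MI and in Patch. A library stood apart in 3 sets, where chance gives about 1 in 20, or 1.2; the sets are related, since they share genes and libraries. Genes at 0 numbered 5474 in MI2, and 2736 in the MI library next to it. The log2 ratio of Edn1 to Agtr1a reads was −3.77 in MI2, and the next MI library was at −1.21. The log2 ratio of Agtr1a to Ace reads was −2.76 in MI165, and the next was at −1.38. No signal of the 4 genes taken singly stood apart by this criterion.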

How the results depend on the processing

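No paired analysis was possible because the columns are not tied to the labels' replicate numbers, and the fit with a replicate block was left out. Of the 2636 genes called for MI versus sham, the count became 4687 in edgeR without MI2, 5679 with sample weights and 599 with only the 2 groups compared; leaving out one library gave 7 (without sham1, where a lone sham library remained; 24 without sham2) to 4979 (without MI2). The 2251 of Patch versus MI became 3701 in DESeq2, 4643 in edgeR without MI2, 5383 with sample weights and 1437 with the 2 groups, and 209 (without P695) to 4821 (without MI2). The 0 of Patch versus sham became 15 in DESeq2, 10 with sample weights and 0 to 2 without one library. The causes were not tested, beyond that fits without a library or group use fewer samples. Scaling to total reads moved the share of higher calls from 47.3% to 73.5% in MI versus sham and from 58.6% to 30.2% in Patch versus MI. It shifted the median of all genes to 0.24 and −0.17; relative to that median Agtr1a differed by 1.55 and −1.64, Ace by 0.70 and −0.85, Edn1 by 0.91 and −0.98 and Agt by −0.20 and −0.22.

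Agtr1a in MI versus sham lost its call with no filter and with the 2 groups alone (both 1.55) and with quantile scaling (1.37), and ranged from 1.31 to 1.79 without one library. Ace in MI versus sham gained a call with total reads (0.94), DESeq2 (0.74), edgeR without MI2 (0.90) and sample weights (0.89), with 0.56 to 0.87 without one library. Edn1 gained a call in edgeR without MI2 (1.72 in MI versus sham, −1.75 in Patch versus MI) and with sample weights (1.38 and −1.46); without one library it ran from 0.49 (without MI162) to 1.60 (without MI2) and from −1.65 (without MI2) to −0.54 (without MI162). In Patch versus MI, leaving out one library gave −1.91 to −1.39 for Agtr1a and −1.01 to −0.70 for Ace. No direction of Ace changed in any alternative, nor that of Agtr1a or Edn1 in these comparisons.

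Differences that passed in no alternative changed sign as follows. Agt in MI versus sham was 0.047 with total reads and −0.40 to 0.19 without one library, and in Patch versus MI it was 0.0081 with sample weights. Agtr1a in Patch versus sham was 0.056 in edgeR, 0.038 in DESeq2, 0.057 in edgeR without MI2 and −0.35 to 0.16 without one library. Edn1 in Patch versus sham was −0.26 to 0.16 without one library. With total reads it was 0.011, but −0.050 relative to the median of all genes, which was then 0.061. Agt had 16 to 60 reads per library. In MI2, Edn1 had fewer reads than Agt, 21 against 37.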
